A study of Homo sapiens with 4 samples.

Results

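Bidirectional promoters are the short stretches from which a pair of neighbouring genes on opposite strands are read away from each other. The members described here are 887 pairs of protein-coding genes of GENCODE release 44 that lie head to head, do not overlap and have 5' ends at most 1000 bp apart. The region of a pair is the span between its 5' ends plus 500 bp into each gene. The pairs held 1710 genes, which is 8.54% of the 20033 protein-coding genes on chromosomes 1 to 22, X and Y. They formed 824 separate loci once overlapping regions were merged, because 63 genes stood in more than 1 pair. The distance between the 5' ends had a median of 132 bp (quartiles 69 and 248.5 bp) and was under 300 bp in 716 pairs. The 5' end is the outermost one annotated for a gene. The canonical transcripts of both genes began within 500 bp of it in 545 pairs (61.4%).

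H3.3 is the histone H3 variant that is deposited into chromatin outside of DNA replication, and it is known to mark promoters and transcribed genes where nucleosomes turn over. A bidirectional promoter is typically a CpG-rich, nucleosome-depleted stretch flanked on each side by the first nucleosomes of a gene, and such promoters are known to serve many genes of DNA repair, the cell cycle and mitochondria. Because transcription leaves the region on both sides, an H3.3 peak can lie in either gene, in both, or between them.

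The libraries came from wild-type MRC5 cells (MRC5_WT in the labels), human lung fibroblasts, which the study's methods describe as MRC5_VA, a line immortalized with SV40. Cells without irradiation (no UV) were compared with cells irradiated with 10 J/m2 UV-C and left to recover for 3 h (UV). Both libraries were precipitated with an antibody to H3.3 (ab176840), and each was made from DNA of 3 replicates pooled before sequencing. There is thus 1 library per condition, so the conditions could not be tested against each other and every difference between them lacks a check by replicates. Input libraries were not analysed here. Peak lists carry no read numbers, so the depth is unknown, and a peak listed in 1 condition only cannot be told apart from a difference in depth. Intervals in brackets after a share are exact (Clopper-Pearson) 95% intervals over promoters and cover counting error only. The lists held 88822 distinct intervals without UV and 77183 after UV. Of 15 fibroblast marker genes, 7 had a peak within 500 bp of the 5' end without UV and 9 after UV, against 1 and 2 of 8 epithelial, 1 and 0 of 7 leukocyte and 0 and 0 of 4 endothelial markers. Over all 19996 distinct protein-coding 5' ends, 31.2% had one without UV and 40.0% after UV. The fibroblast markers without a peak in either list were COL3A1, COL6A2, S100A4, TBX4, TBX5 and THY1.

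The spans between the 5' ends of 9 pairs are printed. Their pair regions carry the patterns described here: peaks in both lists, peaks in the UV list only, peaks in the no UV list only, and the histone pairs. A peak of a region need not cover the span. Each span runs on the plus strand of hg38 from the base after the 5' end of the minus-strand gene, named first, to the base before the 5' end of the plus-strand gene. Capitals mark exact matches on either strand. The motifs searched were the ETS motif CCGGAAGT, the cAMP response element TGACGTCA, the YY1 motif AAGATGGCG and the NRF1 motif GCATGCGC. The others were the GC box, which reads GGGCGG, the CCAAT box, named by its letters, and the TATA box, searched for here as TATAAA. None of these motifs contains another.
XPC/LSM3: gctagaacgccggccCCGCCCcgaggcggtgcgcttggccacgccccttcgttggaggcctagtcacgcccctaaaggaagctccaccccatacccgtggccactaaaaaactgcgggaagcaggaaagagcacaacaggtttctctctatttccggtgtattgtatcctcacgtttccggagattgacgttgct
PPAT/PAICS: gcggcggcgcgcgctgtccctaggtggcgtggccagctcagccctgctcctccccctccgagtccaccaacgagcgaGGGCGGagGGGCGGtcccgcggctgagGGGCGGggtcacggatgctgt
TRAPPC2/OFD1: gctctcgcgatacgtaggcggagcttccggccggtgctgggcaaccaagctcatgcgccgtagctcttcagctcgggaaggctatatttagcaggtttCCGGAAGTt
RECQL/GOLT1B: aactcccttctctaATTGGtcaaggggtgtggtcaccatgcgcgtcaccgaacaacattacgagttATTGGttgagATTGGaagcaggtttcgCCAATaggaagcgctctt
SERAC1/GTF2H5: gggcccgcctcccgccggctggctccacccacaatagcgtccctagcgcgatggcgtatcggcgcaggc
COL4A4/COL4A3: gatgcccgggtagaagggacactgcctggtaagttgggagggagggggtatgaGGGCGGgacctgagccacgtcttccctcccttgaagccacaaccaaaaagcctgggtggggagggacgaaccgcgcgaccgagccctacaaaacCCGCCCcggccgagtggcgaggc
RAB24/PRELID1: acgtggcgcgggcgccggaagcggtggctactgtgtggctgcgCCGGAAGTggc
CENPK/PPWD1: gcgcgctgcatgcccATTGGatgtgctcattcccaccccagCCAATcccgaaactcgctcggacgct
H2BC21/H2AC20: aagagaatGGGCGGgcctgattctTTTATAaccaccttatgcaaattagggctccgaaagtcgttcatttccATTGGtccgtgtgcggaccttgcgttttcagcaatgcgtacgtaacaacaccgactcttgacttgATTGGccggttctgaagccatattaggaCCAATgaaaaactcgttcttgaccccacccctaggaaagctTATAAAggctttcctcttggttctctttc
The span of XPC/LSM3 (chr3:14178622-14178816), a pair with a peak in both lists, has 1 GC box. Of the spans of pairs with a peak in the UV list only, PPAT/PAICS (chr4:56435616-56435740) has 3 GC boxes. TRAPPC2/OFD1 (chrX:13734636-13734742) has an ETS motif at the end next to OFD1, and RECQL/GOLT1B (chr12:21501670-21501780) has 4 CCAAT boxes on both strands. SERAC1/GTF2H5 (chr6:158168281-158168349) has none of the motifs, and COL4A4/COL4A3 (chr2:227164454-227164623) has 2 GC boxes, 1 on each strand. Of the spans of pairs with a peak in the no UV list only, RAB24/PRELID1 (chr5:177303745-177303798) has 1 ETS motif and CENPK/PPWD1 (chr5:65563169-65563235) has 2 CCAAT boxes facing opposite ways. The histone span H2BC21/H2AC20 (chr1:149886683-149886917) has a TATA box near each end, 3 CCAAT boxes and 1 GC box.

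More bidirectional promoters carried an H3.3 peak after UV than before, although the UV list was the shorter of the lists. Without UV, 403 of the 887 regions had a peak (45.4%, 42.1 to 48.8%), and after UV 507 had one (57.2%, 53.8 to 60.4%). A peak was listed in both conditions at 371 regions (41.8%), in the UV list only at 136 (15.3%, 13.0 to 17.9%), in the no UV list only at 32 (3.61%, 2.48 to 5.05%) and in neither at 348 (39.2%). As background, windows as long as a pair region around all 19996 distinct protein-coding 5' ends had a peak in the UV list only in 11.0% and in the no UV list only in 2.37%.

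Regions with 5' ends farther apart are longer, and they more often had a peak. The 337 pairs with ends under 100 bp apart had a peak in 40.4% of regions without UV and 51.3% after UV. The 76 pairs with ends 500 to 1000 bp apart had one in 59.2% and 68.4%. The share with a peak in the UV list only varied less, from 12.6% in the pairs 300 bp to under 500 bp apart to 16.9% in those 100 bp to under 200 bp apart, with overlapping intervals.

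**Figure D1:**
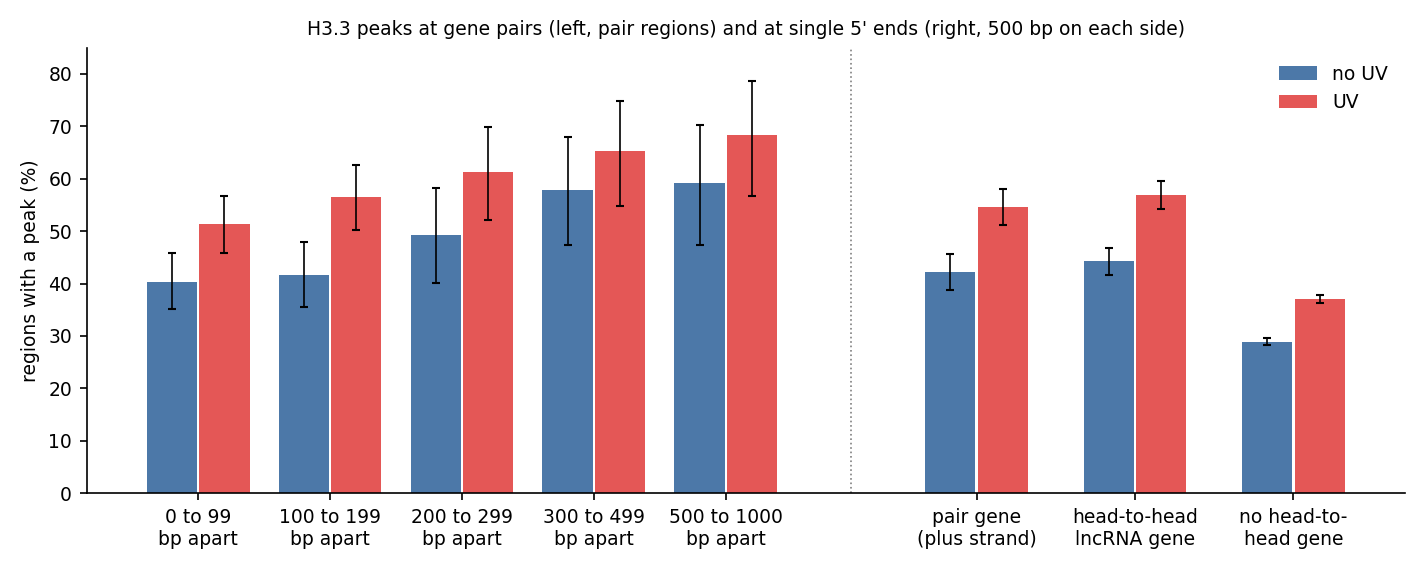
Bars give the percentage of regions with an H3.3 peak without UV (blue) and after UV (red), on the left for gene pairs by distance between the 5' ends and on the right for 1001 bp windows at single 5' ends. Error bars are exact 95% intervals for counting error in 1 library each. The UV bar is the higher one in every class, and the plus-strand genes of pairs (42.2% and 54.7%) stand near genes facing a lncRNA (44.2% and 56.9%) and above genes with no head-to-head neighbour (28.9% and 37.0%).

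To compare pairs with other promoters, the same window of 500 bp on each side was set on every distinct 5' end, and each pair was entered through its plus-strand gene. Among these 856 ends, 42.2% had a peak without UV and 54.7% after UV, and the 850 minus-strand ends gave 42.6% and 55.1%. The 18290 ends of genes in no pair had 30.1% and 38.6%. The plus-strand ends thus stood 12.1 percentage points higher without UV (8.74 to 15.5) and 16.0 points higher after UV (12.6 to 19.4; 95% Newcombe intervals for counting error).

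A peak in the UV list only occurred at 15.9% of the plus-strand ends of pairs, at 10.6% of ends in no pair and at 11.0% of all 19996 ends, a difference of 5.32 points between pairs and ends in no pair (2.98 to 7.96). A peak in the no UV list only occurred at 3.39%, 2.04% and 2.18%, a difference of 1.34 points (0.302 to 2.79). Both kinds of 1-list peak were therefore more frequent at pairs. Among ends that had no peak without UV, 27.5% of those in pairs (23.6 to 31.6%) and 15.1% of those in no pair had a peak after UV. Among ends that had a peak without UV, 8.03% of those in pairs (5.45 to 11.3%) had none after UV. The share was 6.79% of those in no pair (6.14 to 7.49%), with overlapping intervals.

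Head-to-head order with a non-coding partner gave nearly the same shares. The 1418 ends of protein-coding genes facing a lncRNA gene within the same distance had a peak in 44.2% without UV and 56.9% after UV, and in the UV list only in 14.3%. The plus-strand ends of pairs differed from them by -2.04 points (-6.22 to 2.16) without UV, by -2.24 points (-6.45 to 1.96) after UV and by 1.57 points (-1.42 to 4.69) in the UV-only share, intervals that all include 0. The share in the no UV list only was 1.77 points higher at pairs (0.470 to 3.299). Among ends facing a lncRNA gene, 25.7% of those with no peak without UV had one after UV. Of those with a peak without UV, 3.67% had none after UV.

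The window of a pair gene reaches into its neighbour, so each window was also divided at the 5' end. In the 500 bp inside the gene, ends of pairs had a peak in 29.7% without UV and 41.7% after UV, ends facing a lncRNA gene in 38.9% and 53.5%, and ends with no head-to-head gene in 25.3% and 33.9%. In the 500 bp upstream, where the pair has its other gene, the shares were 30.8% and 43.7%, 30.6% and 42.8%, and 18.9% and 26.9%. A pair gene was thus covered about as often on either side of its 5' end, whereas a gene with no head-to-head neighbour was covered more often inside.

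Base composition moved with these shares. The pair regions had a median GC content of 61.2%, with 63.5% where a peak was in both lists, 62.2% in the UV list only, 57.9% in the no UV list only and 58.8% in neither. The median ratio of observed to expected CpG was 0.800, 0.789, 0.743 and 0.727 in the same classes. Within 5 classes of GC content, plus-strand ends of pairs exceeded ends in no pair on average, with each class given the same weight. The mean excess was 5.91 points without UV, 9.65 points after UV and 4.49 points in the UV-only share. The UV-only difference was 11.4 points (3.10 to 28.2) in the class poorest in GC, which held 29 ends of pairs. From there to the richest class it was 3.04 (-1.14 to 8.87), 2.10 (-2.08 to 7.33), 5.69 (0.944 to 11.3) and 0.210 points (-4.45 to 6.24). Most of these intervals include 0. The part of base composition in the peak calls was not tested.

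After UV the peaks reached into both genes of a pair more often. The first 500 bp of both genes were touched by a peak at 135 pairs without UV (15.2%, 12.9 to 17.8%) and at 235 after UV (26.5%, 23.6 to 29.5%). Pairs with a peak at the start of 1 gene alone numbered 268 (30.2%) and 271 (30.6%). Of the 371 pairs with a peak in both lists, 82 (22.1%) had more gene starts covered after UV, 19 (5.12%) fewer and 270 (72.8%) the same number. Of the 136 pairs with a peak in the UV list only, 41 (30.1%) had both gene starts covered.

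Summits, the positions of highest signal in a peak, stood mostly inside the genes. The strongest summit of a region lay between the 5' ends at 19 of 359 pairs without UV (5.29%, 3.22 to 8.14%) and at 35 of 463 after UV (7.56%, 5.32 to 10.4%), while the spans made up 16.6% of the length of all regions. This share depends on the flank: with 250 bp of each gene in place of 500 bp it was 11.2% and 14.7%, and in pairs with ends at most 500 bp apart it was 2.52% and 5.31%. It was in the minus-strand gene in 46.5% and in the plus-strand gene in 48.2% without UV, and in 45.4% and 47.1% after UV. The sides were also nearly even by gene length, as the longer gene held 48.2% of the strongest summits inside a gene without UV and 51.6% after UV.

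Strongest summits inside a gene lay a median of 253 bp from its 5' end without UV (quartiles 162 and 350) and 233 bp after UV (155 and 349). Counting every summit, the spans held 0.169 summits per kb without UV and 0.293 after UV, and the first 500 bp of the genes 0.462 and 0.613. Both parts of the region had more summits after UV, and over all pairs the density was higher in the genes. In the closest pairs, with ends under 100 bp apart, this held without UV (0.164 per kb between the ends and 0.409 in the genes) but not after UV (0.603 and 0.560, with 11 summits between the ends), and the strongest summit lay between the ends in 1.67% and 5.52% of those with a summit, where the span made up 5.13% of the length. Pairs with ends 500 to 1000 bp apart had the strongest summit between the ends in 26.8% and 26.5%, where the span made up 42.9% of the length.

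**Figure D2:**
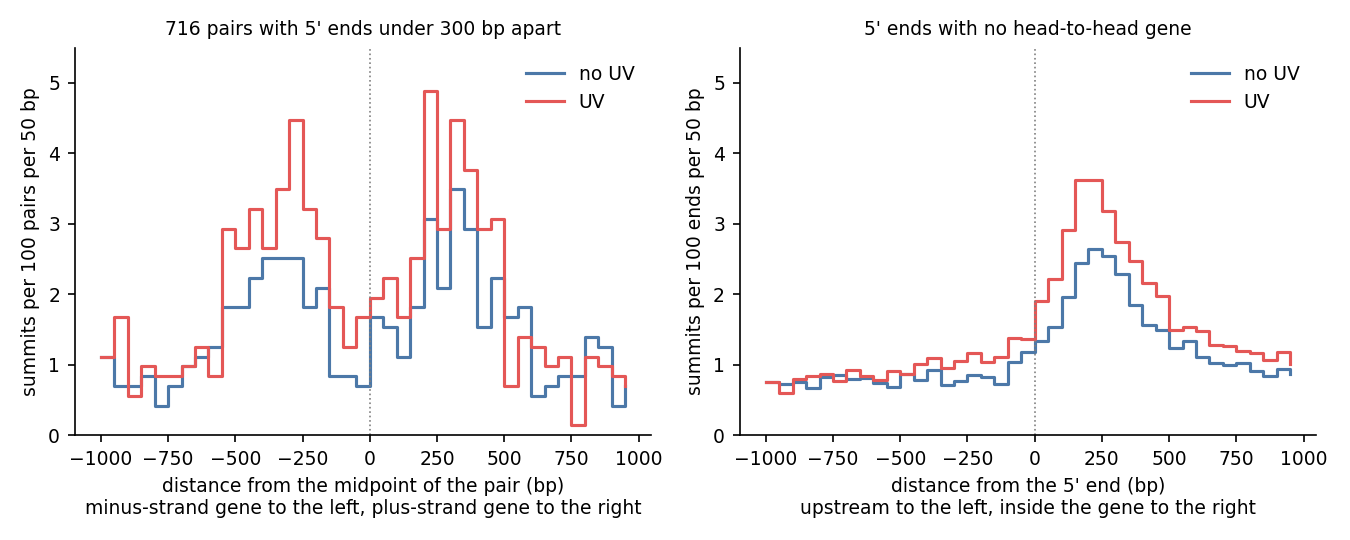
The number of H3.3 summits per 50 bp is plotted without UV (blue) and after UV (red), on the left per 100 pairs around the midpoint of 716 pairs with ends under 300 bp apart and on the right per 100 ends around 5' ends with no head-to-head gene. Pairs show a maximum in each gene and a dip at the midpoint, whereas single ends show 1 maximum inside the gene.

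In the 716 close pairs the profile had a maximum in each gene. Between 200 and 400 bp from the midpoint there were 9.36 summits per 100 pairs without UV and 13.8 after UV on the minus-strand side, and 11.6 and 16.1 on the plus-strand side. Within 100 bp of the midpoint there were 4.75 and 7.12. The strongest summit of a window lay inside the gene at 61.6% of the plus-strand ends of pairs without UV and 57.1% after UV, against 73.2% and 74.8% of ends with no head-to-head gene and 74.7% and 76.4% of ends facing a lncRNA gene.

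A summit in each gene was found at 49 of 359 pairs without UV (13.6%, 10.3 to 17.6%) and at 97 of 463 after UV (21.0%, 17.3 to 24.9%). Regions with at least 2 summits made up 20.9% and 26.8%. The histone pair H2BC21/H2AC20, for example, had a summit on each side in both lists, and its strongest one was 177 bp into H2AC20 without UV and 359 bp into H2BC21 after UV.

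**Figure D3:**
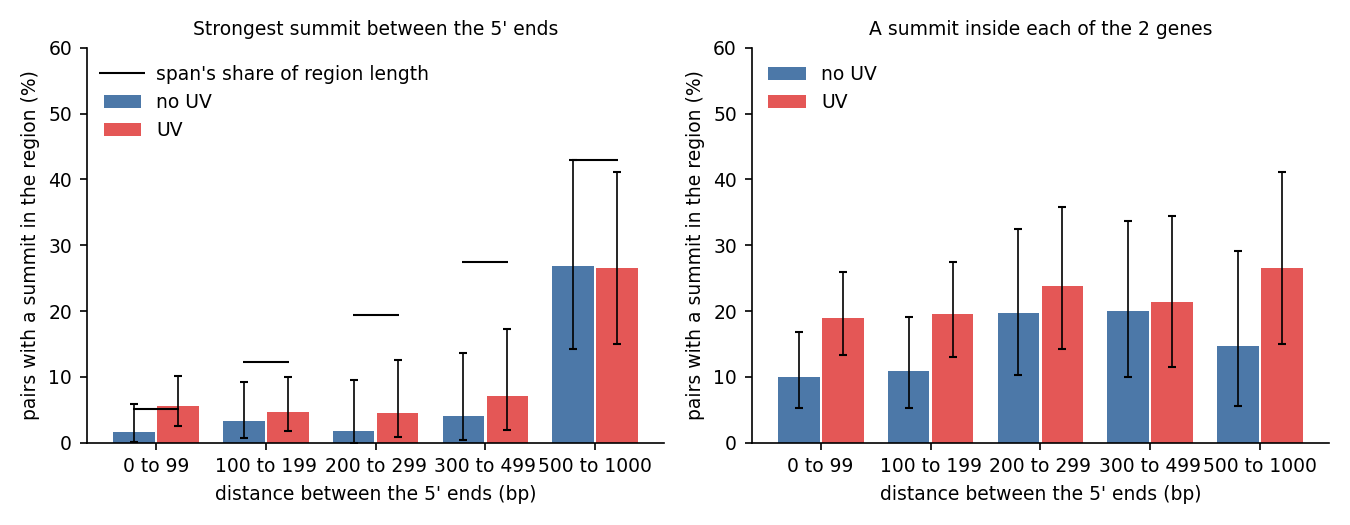
For pairs with a summit in the region, bars give the percentage whose strongest summit lies between the 5' ends (left) and the percentage with a summit inside each of the genes (right), by distance between the ends, without UV (blue) and after UV (red), with exact 95% intervals for counting error. Black lines mark the share of the region length that lies between the ends, 42.9% in the widest class, and most bars on the left stay below them.

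The strongest summit mostly kept its place. Among 324 pairs with a summit in both lists it moved by a median of 22.5 bp (quartiles 10 and 51.25) and by at most 100 bp in 85.5% (81.2 to 89.1%). It passed to the other gene in 30 pairs (9.26%), from a gene to the span in 11 and from the span into a gene in 3. More summits were listed after UV in 50 pairs and fewer in 23. At ends with no head-to-head gene the median move was 26 bp, with 85.9% moving at most 100 bp.

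The longest moves were from one gene to its partner. At NEMP1/NAB2, a nuclear envelope protein and a repressor of EGR transcription factors, the strongest summit lay 275 bp into NEMP1 without UV and 208 bp into NAB2 after UV, 1463 bp away. At NDUFA11/VMAC it went from 123 bp into VMAC to 390 bp into NDUFA11, a respiratory complex I subunit, and at MED22/RPL7A from 390 bp into the ribosomal protein gene RPL7A to 473 bp into MED22, a Mediator subunit.

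Peaks covered more of the regions after UV. Regions with a peak had a median of 397 bp under peaks without UV (33.4% of the region) and 515 bp after UV (42.5%). In the 371 regions with a peak in both lists the change was a median of 94 bp (quartiles 15 and 228.5, range -580 to 1045 bp). Cover was longer after UV in 287 of them (77.4%, 72.8 to 81.5%), shorter in 81 and equal in 3. Windows at ends facing a lncRNA gene with a peak in both lists were covered longer after UV in 78.8% and those with no head-to-head gene in 76.7%, so this shift was about as frequent outside of pairs.

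**Figure D4:**
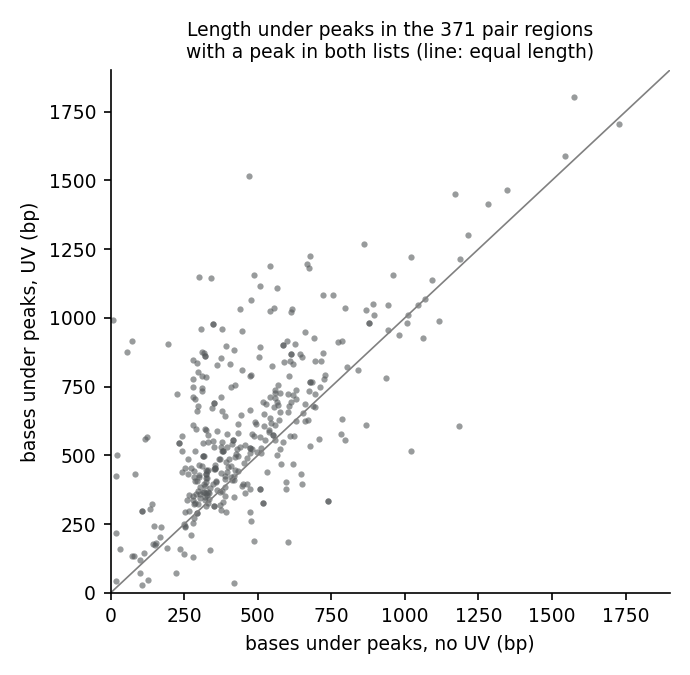
Each point is 1 of the 371 pair regions with a peak in both lists, with the bases under peaks without UV on the horizontal axis and after UV on the vertical axis (bp), and the line marks equal length. Of the points, 287 lie above the line and 81 below it.

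Among the pairs with the largest gain in cover, SLBP/TACC3 went from 470 to 1515 bp. SLBP encodes the protein that binds the stem-loop of histone mRNAs, and TACC3 a spindle protein. RECQL4/LRRC14, with a RecQ helicase gene, had 1148 bp after UV, with a summit 295 bp into LRRC14, and a single summit, 361 bp into RECQL4, without UV. C21orf58/PCNT (7 to 992 bp) and ACD/PARD6A (73 to 917 bp) had only the edge of a peak in the region without UV. The largest losses were at GNL1/PRR3 (1185 to 605 bp), BET1L/RIC8A (1021 to 515 bp), PPIL3/NIF3L1 (601 to 184 bp) and the histone pair H2AC7/H2BC7 (739 to 335 bp), where 1 of 2 summits was no longer listed.

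The authors' -log10 q of a peak is computed within its own library, so it ranks peaks in a list. The highest value in a pair region had a median of 10.4 without UV, at percentile 80.1 of its list, and 15.9 after UV, at percentile 83.5. In 1001 bp windows with a peak, the median percentile was 80.5 and 83.5 at plus-strand ends of pairs. It was higher at ends with no head-to-head gene (83.1 and 84.9) and at ends facing a lncRNA gene (87.2 and 88.2). Peaks in 1 list only ranked lower: at the 136 pairs of the UV list the median was 7.70 (percentile 61.6), and at the 32 pairs of the no UV list it was 3.73 (percentile 32.5). The 371 pairs in both lists had 11.2 and 20.6.

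The strongest peaks in both lists were at HNRNPUL2/TTC9C, with a gene for a nuclear RNA-binding protein, where peaks covered 612 bp, and 694 bp after UV, and -log10 q was 164 and 183. HSPB6/PROSER3, with a small heat shock protein gene, had 361 and 589 bp and -log10 q of 127 and 199.4. MCM3AP/YBEY was covered over its whole region of 1046 bp in both lists. HCFC1/TMEM187, with the gene for host cell factor 1, a transcriptional coregulator, had 1169 and 1451 bp.

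The highest ranks among the 136 pairs of the UV list only went to SDF4/B3GALT6 and TPR/ODR4, but there the peak reached only 32 and 138 bp into the region and its summit lay outside. KCNG3/MTA3, with a subunit gene of the NuRD chromatin complex, was covered over 1033 bp with a -log10 q of 33.8, and MAP3K12/TARBP2, with a partner gene of Dicer, over 850 bp with 32.5. PFDN2/NIT1, with a prefoldin subunit gene, had 610 bp and a summit 200 bp into NIT1. TRAPPC2/OFD1, with genes of vesicle transport and of the centriole, had 435 bp and a summit 261 bp into OFD1.

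The 32 pairs of the no UV list only were led by RAB24/PRELID1, with 322 bp covered, a -log10 q of 16.9 and a summit 119 bp into PRELID1, the gene of a mitochondrial lipid transfer protein. CENPK/PPWD1, with a kinetochore gene, had 580 bp and a -log10 q of 7.59. TEPSIN/NDUFAF8 had 340 bp and 6.77. RPS16/SUPT5H, with genes of a ribosomal protein and of the elongation factor SPT5, was touched over 50 bp only.

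Pairs known from the literature as bidirectional differed among themselves. PPAT/PAICS, whose genes encode enzymes of purine synthesis, had no peak without UV, and after UV 680 bp under peaks with 2 summits, the strongest 346 bp into PAICS. NPAT/ATM, a regulator of histone transcription and the kinase that signals DNA breaks, had 446 bp under a peak of -log10 q 2.90 without UV, with its summit 309 bp into NPAT, and no peak after UV. PRKDC/MCM4, the catalytic subunit of DNA-PK and a replicative helicase subunit, had a peak in both lists, with 388 and 424 bp covered and summits 25 and 19 bp into PRKDC. HSPD1/HSPE1, COL4A1/COL4A2, TAP1/PSMB9 and SURF1/SURF2 did not meet the rule in this annotation.

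DNA repair and damage signalling genes were frequent in pairs: 44 of 154 listed genes (28.6%) stood in 46 pairs. Peaks were in both lists at 18 of these pairs, in the UV list only at 13 (28.3%, 16.0 to 43.5%), in the no UV list only at 3 and in neither at 12. Over all 887 pairs, these 46 included, the UV-only share was 15.3%, which lies just below that interval, and the list was chosen with results of these data known. By 5' ends, 13 of 44 listed genes in pairs (29.5%, 16.8 to 45.2%) and 18 of 110 listed genes in no pair (16.4%, 10.0 to 24.6%) had a peak in the UV list only, with overlapping intervals. Over genes of every kind this share was 15.9% at plus-strand ends of pairs, 10.6% at ends in no pair and 11.0% at all ends. In the 33 repair pairs whose canonical transcripts begin near the 5' ends, the counts were 10, 10, 3 and 10.

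Pairs with a gene of nucleotide excision repair, the pathway that removes UV lesions, had a peak in both lists, in the UV list only or in neither. The peak of a pair can lie in the partner gene. XPC/LSM3, with the damage sensor XPC, had one of the strongest peaks of the repair pairs in both lists. It covered 522 and 605 bp, with summits 253 and 238 bp into XPC and -log10 q of 53.7 and 35.97. ERCC8/NDUFAF2, with the CSA subunit of the transcription-coupled repair ligase, had 280 and 255 bp, with summits 411 and 420 bp into NDUFAF2. The pairs of the TFIIH subunit genes GTF2H5 and GTF2H1 had a peak in the UV list only. SERAC1/GTF2H5 had 694 bp under 2 summits, and HPS5/GTF2H1 had 294 bp. The pairs of XAB2, a binding partner of XPA, and of CETN2, a partner of XPC, had none in either list.

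Among pairs with a gene for double-strand break repair, those of XRCC6 (Ku70) and MRE11 had a peak in both lists. DESI1/XRCC6 had 379 bp and, after UV, 660 bp, and MRE11/ANKRD49 339 and 381 bp. LIG4/ABHD13 (406 bp), XRCC3/ZFYVE21 (316 bp), TP53BP1/MAP1A (564 bp) and BRCA1/NBR1 (575 bp) had one in the UV list only. The canonical transcript of BRCA1 begins 44881 bp from the outer 5' end used here, so that pair stands for a far 5' end of the gene. The promoter region of RAD51C, which stands in 2 pairs, had a peak of 281 bp in the no UV list only. PALB2/DCTN5, SLX4/DNASE1 and RAD51D/FNDC8 had none.

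Pairs with a mismatch or base excision repair gene were likewise divided. PMS2/AIMP2 had 651 bp and, after UV, 396 bp, and OSGEP/APEX1 457 and 362 bp, whereas NTHL1/TSC2 (644 bp) had a peak in the UV list only. XPO5/POLH, with the polymerase that copies past UV lesions, had 696 and 723 bp. TMEM258/FEN1, with the flap endonuclease, had no peak in either list. RECQL/GOLT1B, with a RecQ helicase gene, had 351 bp in the UV list only, with its summit 226 bp into GOLT1B.

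The strongest summit was in the repair gene about as often as in its partner. In pairs with 1 listed gene and a summit, it lay in the repair gene at 10 of 20 pairs and in the partner at 10 without UV, and at 13 and 17 of 31 pairs after UV. In the 18 repair pairs with a peak in both lists, cover was longer after UV in 9 and shorter in 9.

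**Figure D5:**
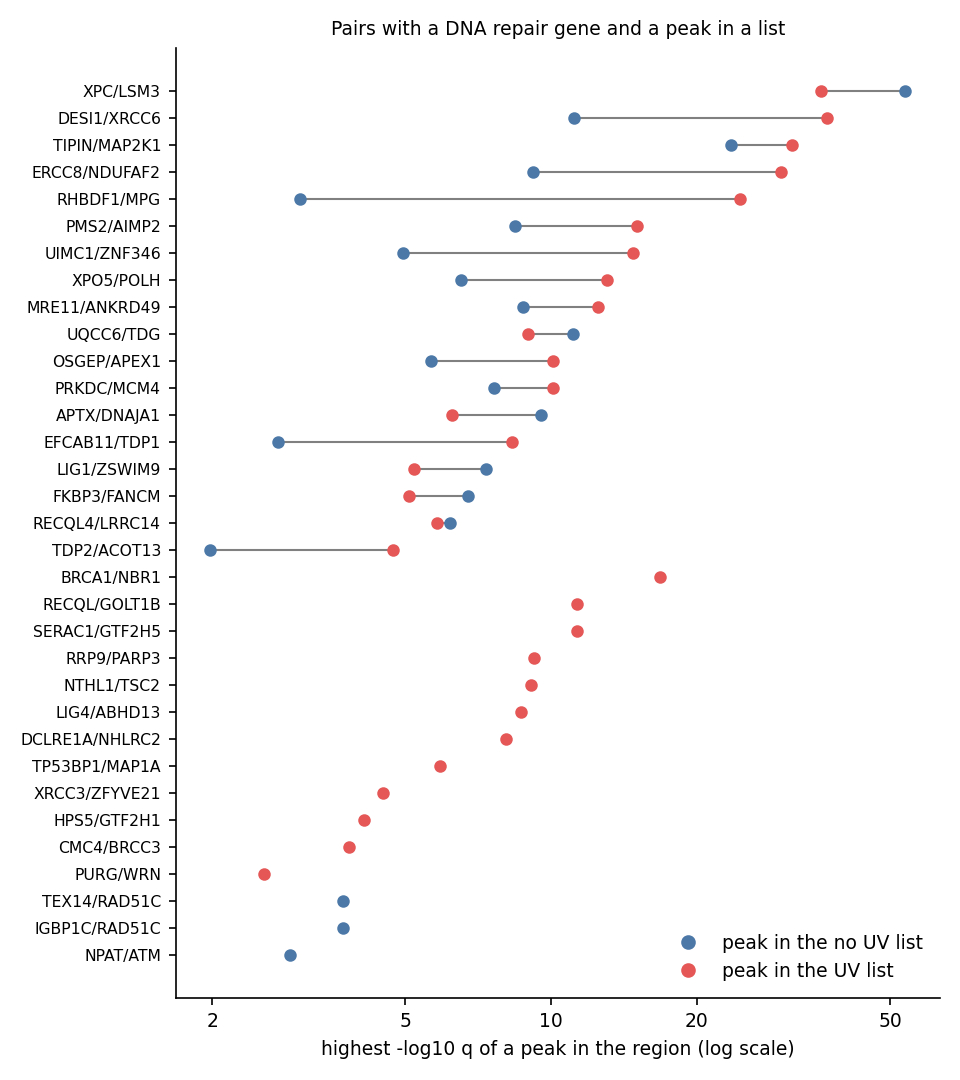
The highest -log10 q of a peak in the region (log axis) is plotted for 33 pairs with a DNA repair gene and a peak in at least 1 list, without UV (blue) and after UV (red), with a line joining the values of a pair. The upper 18 pairs have both points, the next 12 only the UV point and the last 3 only the no UV point, and values are each library's own, so the length of a line is not a measured change.

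Of the 8 gene lists, replication-dependent histones had the highest share of genes in pairs and of pairs with a peak in both lists. Of 74 listed genes, 27 (36.5%) stood in 15 pairs. Peaks were in both lists at 11 (73.3%, 44.9 to 92.2%), in the UV list only at 2 and in neither at 2, against 41.8%, 15.3% and 39.2% of all pairs. By 5' ends, 18 of 27 histone genes in pairs (66.7%, 46.0 to 83.5%) and 19 of 47 in no pair (40.4%, 26.4 to 55.7%) had a peak in both lists, with overlapping intervals. Over genes of every kind this share was 38.8% at plus-strand ends of pairs, 28.1% at ends in no pair and 29.0% at all ends. In the 11 pairs the median cover went from 630 to 747 bp. H2BC21/H2AC20 had 803 and 820 bp, H2AC17/H2BC17 had 679 and 767 bp, and H2BC11/H2AC11 had 630 and 738 bp, each with 2 summits in both lists. These genes are short and near-identical in sequence, so reads of 1 gene may be placed at another or discarded.

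Pairs with a gene of the mitochondrial ribosome or respiratory chain mostly had no peak. Of 189 listed genes, 44 (23.3%) were in 44 pairs, and 27 of these pairs (61.4%, 45.5 to 75.6%) had no peak in either list, against 39.2% of all pairs. Peaks were in both lists at 12, in the UV list only at 4 and in the no UV list only at 1. Those with the strongest peaks were SKA3/MRPL57, with 842 bp and, after UV, 809 bp, and ESF1/NDUFAF5, with 387 and 385 bp and a summit at the same base, 302 bp into NDUFAF5. By 5' ends, 28 of 44 such genes in pairs (63.6%, 47.8 to 77.6%) and 82 of 145 in no pair (56.6%, 48.1 to 64.8%) had none, with overlapping intervals. Over genes of every kind, 41.9% of plus-strand ends of pairs and 59.3% of ends in no pair had none. In windows as long as a pair region at all 19996 ends the share was 57.0%, which lies within the interval of the 44 pairs.

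The remaining lists are small, and their counts are to be read beside the shares over all pairs, 41.8% in both lists, 15.3% in the UV list only, 3.61% in the no UV list only and 39.2% in neither. Of 21 pairs with a replication or cell cycle gene, 10 had a peak in both lists (47.6%), 2 in the UV list only, 2 in the no UV list only and 7 in neither (33.3%). LIPT2/POLD3, with a subunit gene of DNA polymerase delta, had 601 bp and, after UV, 656 bp, and IDE/KIF11, with a mitotic kinesin gene, was covered over its whole region of 1010 bp in both. Of 26 pairs with a gene of the transcription machinery the counts were 14 (53.8%, 33.4 to 73.4%), 3, 2 and 7. CLCN2/POLR2H, with a subunit gene shared by the RNA polymerases, had 321 bp and 596 bp, and its -log10 q was 7.64 without UV and 82.7 after UV.

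Of 19 pairs with a chaperone gene, 8 had a peak in both lists (42.1%), 5 in the UV list only (26.3%, 9.15 to 51.2%), none in the no UV list only and 6 in neither. BOP1/HSF1, with the heat shock transcription factor, went from 323 to 783 bp as a second summit was listed. Of 22 pairs with a gene of the cytosolic ribosome or a translation factor the counts were 8 (36.4%), 5 (22.7%, 7.82 to 45.4%), 2 and 7, and the intervals of the UV-only shares of both lists include that of all pairs. In EIF1AD/BANF1, 195 bp were covered without UV and 904 bp after UV. Extracellular matrix genes, abundant products of fibroblasts, had 4 of 71 members (5.63%, against 8.54% of all protein-coding genes) in 2 pairs. One of these, COL4A4/COL4A3, had 331 bp under a peak in the UV list only, with its summit 128 bp into COL4A3.

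The windows of pairs held some promoter motifs more often than those of genes in no pair and others less often. A window at a pair gene usually holds the starts of both genes. Its median GC content was 61.6%, against 58.8% at ends in no pair. The part of either in the motif shares was not tested. The ETS motif was found in 18.9% of all pair regions and in 18.3% of the 1001 bp windows at plus-strand ends of pairs, against 6.31% at ends in no pair and 7.30% at all ends. The NRF1 motif was in 11.3%, 5.54% and 6.03% of the same windows, the YY1 motif in 6.78%, 3.62% and 3.90%, the cAMP response element in 5.49%, 3.01% and 3.21% and the GC box in 90.9%, 70.2% and 72.0%. The TATA box was rarer, with 16.4%, 27.9% and 26.9%. The CCAAT box was about as frequent in these windows, with 65.4%, 65.6% and 65.7%, but within 150 bp of the 5' end it was in 38.6% of pairs (35.3 to 41.9%) and in 33.3% of ends in no pair (32.6 to 34.0%). Ends facing a lncRNA gene resembled pairs in the GC box (91.1%) and the TATA box (13.8%) and had 11.4% for the ETS motif, 8.39% for NRF1, 5.08% for YY1, 4.37% for the cAMP response element and 62.1% for the CCAAT box.

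In the spans alone, the GC box was present in 58.3% of pairs, the CCAAT box in 34.6%, the ETS motif in 7.89% and the TATA box in 4.40%. By peak class, the ETS motif was in 15.1% of regions with a peak in both lists (11.6 to 19.1%), in 22.1% of those in the UV list only (15.4 to 30.0%), in 28.1% of those in the no UV list only (13.7 to 46.7%) and in 21.0% of those in neither (16.8 to 25.6%), with overlapping intervals. The GC box was in 96.0%, 98.5%, 96.9% and 87.4%. A match shows the letters and not a bound factor.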

How the data were processed

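H3.3 ChIP-seq of wild-type MRC5 cells without UV and after UV was used, with 1 library per condition. The authors used Trimmomatic 3.36 for trimming, BWA 0.7.12 for alignment to hg38, Biobambam2 against duplicates and MACS for peak calling. The submitters' processing notes name MACS 1.4.2, although the lists hold 1 row per summit, a layout of later versions. The control and threshold for H3.3 are not given in the sources used here. The lowest -log10 q listed was 1.30 in both lists. Each deposited row holds a score (10 times the -log10 q), the summit's enrichment as a linear ratio over local background, and its -log10 p and -log10 q. The authors obtained all of them from 1 library at a time. They vary with depth and served here only to rank or filter peaks of the same list. Without read numbers, the precision of a single peak is unknown.

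Gene pairs were built from GENCODE release 44, whose coordinates are those of hg38. A peak was present where an interval overlapped a region by at least 1 bp. The strongest summit was the one with the highest -log10 q inside the region. Gene starts were the first 500 bp of each gene. Sequences were read from hg38 and motifs searched as exact letters on both strands. The named pairs were 8 pairs known as bidirectional, all pairs with a DNA repair gene, the 6 strongest pairs in both lists and in each list alone, those with the 5 largest gains and losses in cover and, where -log10 q reached 5 in both lists, moves of the summit, and up to 4 of the strongest pairs of each gene list. Of the pairs this rule names, 2 are not reported here by name, and 1 of them, a repair pair, is left out of the plot of repair pairs but kept in the counts. The members, gene lists and sequences shown were chosen with earlier results of these data known. With 1 library per condition no test was made. Alternatives were another largest distance or flank, a minimum -log10 q of 3 or 5, lists cut to the same number of peaks, the summit inside the region, an overlap of at least 200 bp, pairs without readthrough genes and 1 pair per gene. The difference in UV-only share was also taken with windows of 250 or 1000 bp on each side and for the minus-strand gene. It was averaged over 5 classes of GC content as well. Pairs with nearby canonical transcripts were added after seeing the data. Procedures were tested on simulated lists. Analyses ran in Python 3.11.15 with scipy 1.17.1, pandas 2.3.3 and numpy 2.4.6, and plots in matplotlib 3.10.9.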

Additional observations from a re-analysis of the deposited data

How the results depend on the processing

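Each of the 101 alternatives combined 1 result with 1 other setting. Of these, 83 stayed within the 95% interval of the value given and 18 moved past it. Some of the 83 could not move. The overlap and summit rules do not enter the choice of the strongest summit, and cutting to equal numbers leaves the shorter UV list whole. Shares and lengths cannot change sign, so a change of direction was possible only for the difference in UV-only share. That difference, pair genes minus genes in no pair, stayed between 4.49 and 6.33 points. The lowest value is the mean over 5 classes of GC content with equal weight. The class poorest in GC, with 29 of the 856 ends of pairs, had 11.4 points, and the other classes had 0.210 to 5.69 points. With a flank of 250 bp, the share of pairs with a peak was 39.2% without UV and 52.0% after UV, the strongest summit lay between the 5' ends in 11.2% and 14.7%, and the median cover was 273 and 328 bp. With a flank of 1000 bp, the share without UV was 50.5% and the cover 525.5 and 632 bp. Counting only peaks whose -log10 q reached 5, the shares were 36.3% and 50.4%, and 1.69% had a peak in the no UV list only. With the summit inside the region they were 40.5% and 52.2%, and with an overlap of at least 200 bp 41.1% and 53.4%. With ends at most 500 bp apart, 2.52% and 5.31% of strongest summits lay between them. The share after UV minus that without UV was between 9.81 and 14.1 points throughout. In the 545 pairs with nearby canonical transcripts, chosen after seeing the data, 46.1% and 58.0% had a peak, 16.0% in the UV list only. No replicate could be left out, and no paired analysis was possible because each condition has 1 library of pooled DNA. Depth, batch and UV cannot be told apart.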
